A study of Caenorhabditis elegans with 12 samples.

Results

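The wild-type L4 transcriptome described here is that of N2, the standard laboratory strain of the nematode Caenorhabditis elegans, measured in whole animals at the last larval stage. The N2 libraries were chosen by their label alone, and they are 3 of the 12 libraries of the series. They were measured over 14505 genes, every one of which is accounted for below in a class of abundance, and 14500 of which had at least 1 read in at least 1 of the 3 libraries. No value of the other strains is described, and no comparison between strains is made. The authors' scaling of the N2 values did use every sample of the series.

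The study sequenced polyadenylated RNA from 4 groups of animals: CA-CRTC-1, CA-AAK-2, the strain carrying both, and N2. N2 carries no transgene or mutation in the labels and was fed OP50-1 bacteria at 20 °C like the other groups. Eggs freed with hypochlorite hatched without food, which brings the larvae to one starting point, and the animals were taken as L4 larvae. The 3 N2 samples are given as biological replicates, and how many animals each held and at which hour of L4 they were taken is not given in the sources used here.

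L4 is the stage at which a hermaphrodite nears adult size. Its gonad has made sperm and is turning to oocytes, its epidermis is building the adult cuticle beneath the larval one for the final moult, and its gut, muscle and nervous system already work. A whole-animal library mixes the RNA of all these tissues, so the level of a gene reflects both how many cells make its transcript and how much each cell holds; these cannot be told apart in such a library.

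Values are CPM, the counts of a gene per 1000000 counted reads after the authors' normalisation, and are given for replicates 1, 2 and 3 in that order. A gene's level relative to other genes is given as CPM per kb of exon, since longer transcripts give more reads. The libraries held 30887631, 48650231 and 48842023 counted reads, and 1 read equalled 0.0285, 0.0178 and 0.0178 CPM. The columns summed to 881384, 867703 and 871104 CPM, and shares below are of these sums. Counts of 0 were rare in the deposited gene set, with 40, 19 and 25 genes, and 5 genes had none in any library.

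Most of the measured genes were present at a low level. A mean of at least 1 CPM was reached by 13329 genes, or 91.9%, and at least 10 CPM by 8396 genes, or 57.9%. The count at 10 CPM was 8400, 8306 and 8469 in the separate libraries, so it hardly depended on which library was read. Only 1610 genes, or 11.1%, averaged 100 CPM or more, yet they held 70.2% of the summed CPM. The 131 genes at 1000 CPM or more, 0.903% of the total, held 28.2%, and 4 genes passed 5000 CPM. The median gene of this filtered set had 14.4 CPM.

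The reads were spread over many genes and no small set dominated. The most abundant gene took 1.04%, 1.13% and 1.00% of the 3 libraries. The 10 most abundant took 5.23% ± 0.187 (SD, n = 3), and 8 genes were among the 10 in all 3 libraries. The 100 most abundant took 24.3% ± 0.420, with 95 genes shared by the lists of all 3 libraries. By mean CPM, 26 genes made up 10% of the reads, 106 made up 25%, 507 made up 50%, 2089 made up 75% and 4829 made up 90%. The number for 50% was 506, 490 and 523 in the separate libraries. Counted per kb of exon, 248 genes made up 50%, because many of the most abundant transcripts are short: the median exon length was 980 bases for genes at 1000 CPM or more and 1379 for all genes.

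**Figure D1:**
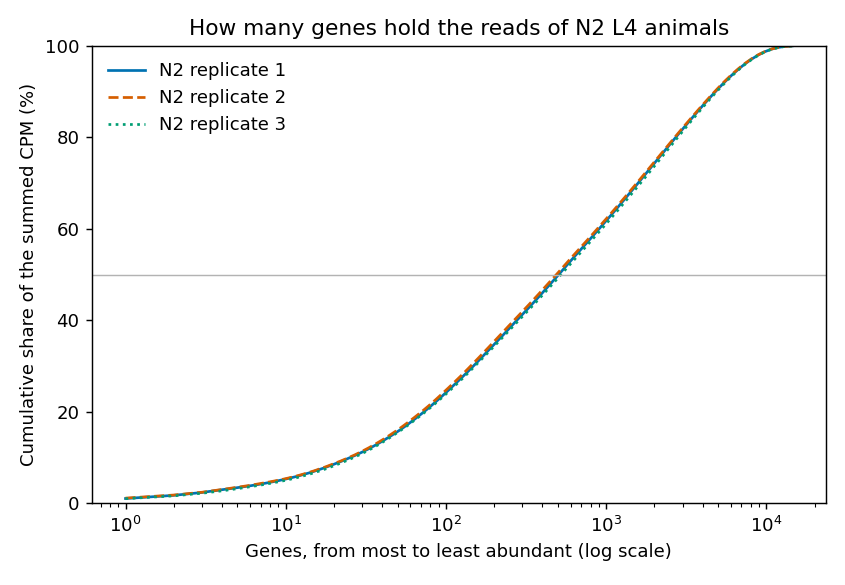
Cumulative share of the summed CPM (vertical axis, percent) against genes ordered from most to least abundant (horizontal axis, log scale), with 1 line for each of the 3 N2 libraries and a grey line at 50%. The 3 lines lie on one another and cross 50% at 506, 490 and 523 genes.

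The head of the list was led by the machinery of protein synthesis and by structural proteins. eef-1A.1, the elongation factor that brings aminoacyl-tRNA to the ribosome (chromosome III, 6970026 to 6971712 in WBcel235), had 9125, 9784 and 8716 CPM. It was first on both scales, with 5991 ± 350.5 CPM per kb (SD, n = 3). unc-54, the main myosin heavy chain of body-wall muscle, came second in reads with 6128, 5818 and 5364 CPM, but with 6204 bases of exon it stood at rank 157 per kb, with 930.0 ± 61.9 CPM per kb. eef-2, which moves the ribosome along the mRNA, had 5345, 5270 and 5016 CPM. rpl-3, a protein of the large ribosomal subunit, had 5504, 5223 and 4570 CPM. These 4 are the genes that passed 5000 CPM on average.

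Below these stood genes of cuticle, yolk and metabolism. col-73, a cuticle collagen, had 4005, 4318 and 3692 CPM, which with only 980 bases of exon made 4086 CPM per kb. vit-6, a yolk protein precursor, had 3531, 3618 and 3234 CPM, and ahcy-1, the enzyme that breaks down S-adenosylhomocysteine, had 3122, 3122 and 2896 CPM. hsp-1, the constitutive cytosolic Hsp70 chaperone, had 3174, 3007 and 2910 CPM. ant-1.1, the ADP/ATP carrier of the inner mitochondrial membrane, had 2846, 2980 and 2905 CPM. acdh-1, an acyl-CoA dehydrogenase known for propionate breakdown, had 2857, 2638 and 2741 CPM. These libraries lay close together for each gene, the highest at most 1.17 times the lowest.

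1 entry of the 10 most abundant is not an mRNA. rrn-3.1, a 26S ribosomal RNA gene of chromosome I, had 3389, 2461 and 4118 CPM, a far wider range than its neighbours in rank, with a coefficient of variation (SD over mean) of 25%. Ribosomal RNA is what selection for poly(A) tails removes, and the part of that step in its spread was not tested. Without this entry the 10 most abundant genes held 5.19% of the reads.

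Per kb the order changed. Only 14 of the 30 most abundant genes by CPM were also among the 30 most abundant per kb. rps-25, a small-subunit protein with 400 bases of exon, was second per kb with 5548 ± 192.0 CPM per kb against rank 30 by CPM. F41F3.3, a gene with no symbol in the table and with no role assigned here, was at rank 3 with 4968 CPM per kb, from 2197, 2159 and 2664 CPM. far-2, a secreted fatty acid and retinol binding protein, was at rank 8 with 3953 CPM per kb. Across 14282 genes with annotated exons, Spearman's rho with exon length was 0.29 for mean CPM and -0.07 for CPM per kb, given as a description since genes are not independent.

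By function, ribosomal proteins formed the largest family by far. The 81 genes for cytosolic ribosomal proteins took 12.3%, 12.4% and 12.2% of the reads and 24.5% of the summed CPM per kb. 78 of the 81 reached 100 CPM, 42 of the 100 most abundant genes were among them, and their median level was 2183 CPM per kb, against 10.5 for all genes. The subunits did not sit at one level even so. rpl-10 had 4178 CPM per kb and rpl-37 had 192.9, and the range over the family was 9.27 to 5548 CPM per kb. Near-identical gene copies can split or lose reads in counting, so low members are uncertain.

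The rest of the translation apparatus was smaller in reads. 49 translation factors took 3.56% ± 0.113 of the reads, most of it eef-1A.1, eef-2, pab-1 and eef-1G. pab-1, the poly(A)-binding protein, had 2623, 2703 and 2672 CPM. 32 aminoacyl-tRNA synthetases, which charge tRNAs, took 0.565% ± 0.00757, with kars-1 for lysine leading at 448.3, 451.3 and 444.8 CPM. 67 mitochondrial ribosomal proteins took 0.310% ± 0.00663, and their median of 42.9 CPM per kb lay well under the 2183 of the cytosolic ones.

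Cuticle collagens were the second family. These short proteins are secreted by the epidermis and cross-linked into the cuticle, in separate waves in every moult. The 137 measured collagen genes took 7.21%, 7.58% and 7.19% of the reads, and 73 of them reached 100 CPM. col-73 led them, followed by col-77 with 3325, 3545 and 3218 CPM, col-138 with 2677, 2807 and 2657 CPM, and col-38 with 2265, 2406 and 2186 CPM. 18 of the 100 most abundant genes were cuticle collagens. dpy-13, a collagen whose mutants are short and fat, had 2084, 2119 and 2059 CPM, values close together in the 3 libraries.

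The family was far from even. The annular furrow collagens dpy-2, dpy-3, dpy-7, dpy-8, dpy-9 and dpy-10, which are needed for the circumferential furrows of the cuticle and are made together early in each moult cycle, stood low. Their median was 5.84 CPM per kb, with a range of 4.87 to 8.50, against a median of 156 CPM per kb in the other 131 collagens. dpy-7 had 10.2, 5.89 and 7.62 CPM. The other collagens ran from 0.0385 to 4086 CPM per kb, so the family spanned the whole scale of the transcriptome.

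Enzymes that process collagen were present as well. phy-2, a prolyl 4-hydroxylase of collagen, had 95.5, 95.9 and 96.1 CPM. pdi-2, the protein disulfide isomerase that serves as its partner, had 1215, 1261 and 1153 CPM. bli-4, a proprotein convertase acting on cuticle collagens, had 245.4, 244.7 and 244.9 CPM. phy-2 and bli-4 each varied by under 1% between libraries.

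Muscle and its attachments formed the third group. 101 genes for actin, myosin and other sarcomere parts took 4.34%, 4.25% and 4.08% of the reads, led by unc-54, act-4, unc-15 and lev-11. act-4, an actin, had 2189, 2273 and 2253 CPM. unc-15, the paramyosin of the thick filament core, had 2168, 2191 and 2222 CPM. lev-11, tropomyosin, had 1769, 1750 and 1724 CPM. Per kb the group's share was 2.50%, since sarcomere transcripts are long. 17 basement membrane genes took 0.893% ± 0.0325, led by let-2 and emb-9, the 2 chains of type IV collagen, with 2331 and 1500 CPM on average. ost-1, the worm's SPARC, had 1116, 1049 and 934.2 CPM.

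Genes of folding and secretion were also abundant. 100 chaperone and heat shock genes took 2.84% ± 0.0565 of the reads, of which hsp-1 and hsp-90 were the largest, and crt-1, the calreticulin of the endoplasmic reticulum, had 1914, 1918 and 1679 CPM. 168 genes of transport and secretion took 1.92% ± 0.0249, led by sec-61.A, the channel through which secreted proteins enter the endoplasmic reticulum, with 1342, 1346 and 1265 CPM.

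Energy and lipid metabolism took shares of 0.750% to 2.50% by list. 79 nuclear-encoded genes of oxidative phosphorylation took 1.94% ± 0.00704 of the reads, led by the ATP synthase subunits atp-2, with 2492, 2399 and 2402 CPM, and atp-1, with 2010, 2131 and 1965 CPM. Mitochondrially encoded genes were not analysed here. 188 genes of fatty acid and lipid metabolism took 2.50% ± 0.0377, led by acdh-1 and far-2. 26 genes of the TCA cycle and glyoxylate shunt took 0.866% ± 0.00462, led by icl-1, the enzyme of the shunt that lets worms make sugar from fat, with 1065, 1003 and 1095 CPM. 39 genes of glycolysis and gluconeogenesis took 0.750% ± 0.0109, led by the gluconeogenic enzyme pck-2 with 631.2, 642.3 and 630.8 CPM. These 3 shares differed little between the libraries.

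The gut supplied digestive enzymes and yolk. 98 protease, saposin and related digestive genes took 2.09%, 2.17% and 2.1% of the reads. asp-1, an intestinal aspartic protease, had 2093, 2389 and 2390 CPM, and cpr-6, a cathepsin B, had 1275, 1308 and 1257 CPM. The 6 vitellogenins, yolk precursors that the adult gut makes for the oocytes, took 0.731%, 0.746% and 0.695%. vit-6 and vit-2 held most of it, vit-2 with 2000, 2054 and 2011 CPM. The remaining 4 averaged 276.1 CPM for vit-5, 226.8 for vit-3, 181.2 for vit-1 and 155.4 for vit-4. Per kb the family's share was 0.168%, as these are long transcripts with a median of 4935 bases of exon. The near-identical members vit-3, vit-4 and vit-5 can exchange reads, so their split is uncertain.

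Genes of both gametes were present. The oogenesis and germ-granule genes took 1.25%, 1.29% and 1.30% of the reads. cgh-1, a conserved RNA helicase of germ-line granules, had 947.9, 970.8 and 965.1 CPM, and glh-1, a Vasa-type helicase of P granules, had 800.0, 804.7 and 835.7 CPM. On the sperm side, 29 genes for the major sperm protein, the cytoskeletal protein by which nematode sperm crawl, took 0.366%, 0.266% and 0.290%, and 66 other sperm genes took 0.402%, 0.372% and 0.374%. msp-81 had 252.1, 172.3 and 213.6 CPM, and ssq-4, of a sperm-specific family, had 324.8, 289.1 and 330.4 CPM. Replicate 1 was the highest for msp-81 but not for ssq-4. The msp coding sequences are nearly identical, so the division of reads among them is uncertain.

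Several large families took few reads, counted over their measured members alone. 324 synaptic, channel, receptor and axon genes took 0.671% ± 0.00721, and 124 neuropeptide and insulin-like genes took 0.139% ± 0.00403. 172 nuclear hormone receptors took 0.181% ± 0.00280, with nhr-114, a gut receptor, highest at 161.8, 187.0 and 157.9 CPM. The 37 chemoreceptor genes measured under a listed name took 0.0114% ± 0.000491, and 1 of them reached 10 CPM. Chemoreceptor genes absent from the filtered gene set are not counted, so 37 is not the size of the family. 36 histone genes took 0.0947% ± 0.00188, led by hil-5, htz-1, his-72 and his-74. These are a linker histone and variants of H2A and H3 rather than the histones of replicating DNA, whose mRNAs mostly lack a poly(A) tail; the part of the poly(A) selection in these levels was not tested.

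The function lists together held 3414 genes and 57%, 57.5% and 56.3% of the reads. The other 11091 genes held 43%, 42.5% and 43.7%. Among the 507 genes that made up 50% of the reads, 76 were ribosomal proteins, 57 cuticle collagens, 28 sarcomere genes and 131 in no list.

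**Figure D2:**
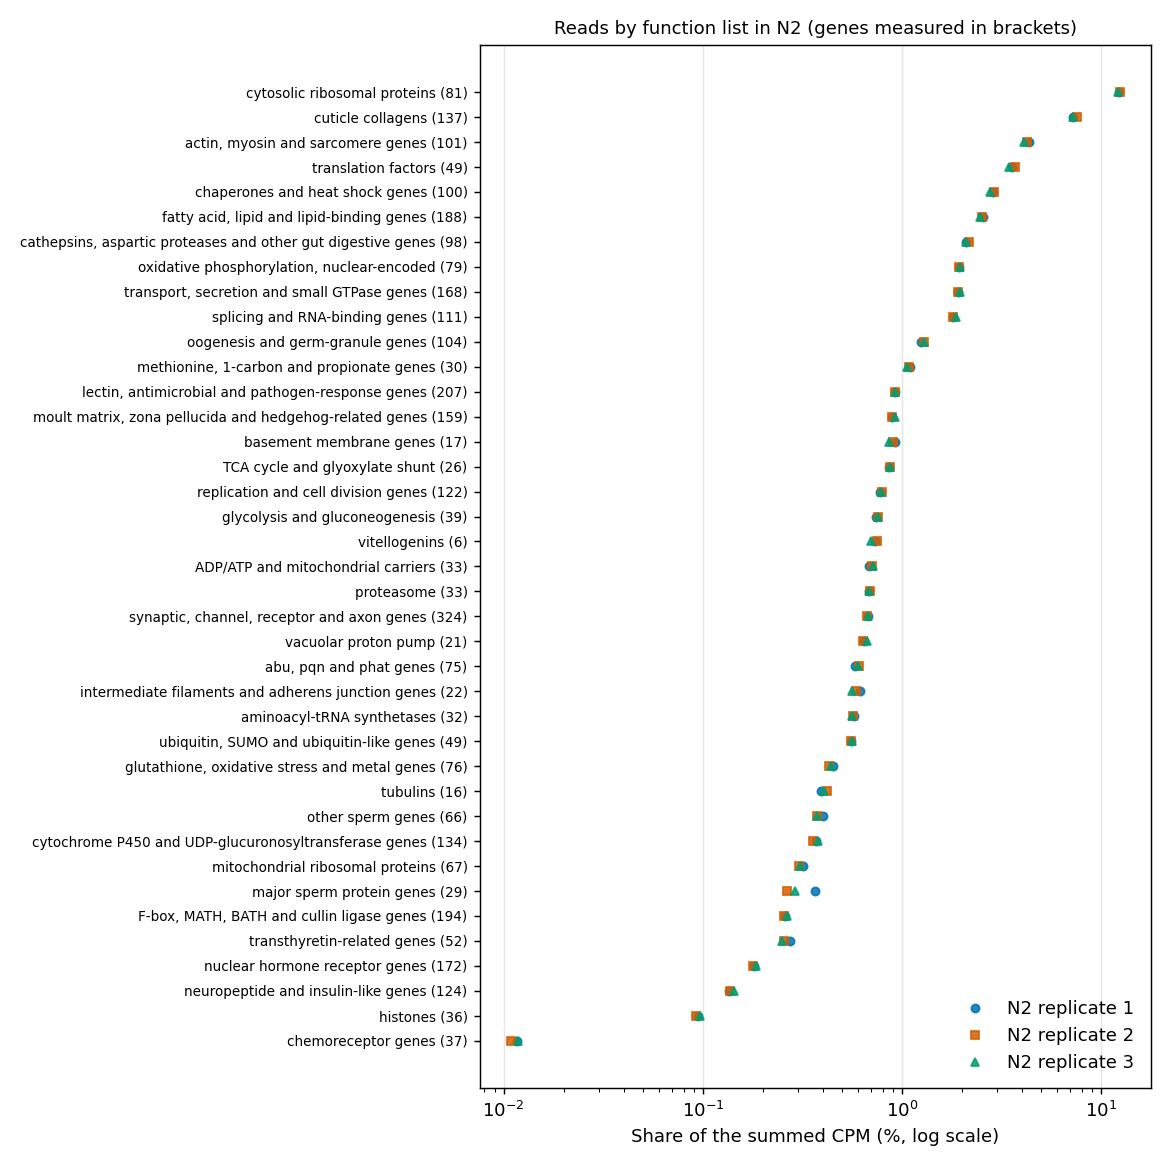
Share of the summed CPM (horizontal axis, percent on a log scale) for each function list, from the largest to the smallest, with the number of measured genes in brackets and 1 marker for each N2 library. Most lists have all 3 markers on one spot, from 12.3% for cytosolic ribosomal proteins to 0.0114% for chemoreceptors, while replicate 1 stands to the right for the major sperm protein genes.

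Markers of the tissues were then read per kb, to place the lists on one scale. The lists differ in the kinds of genes they hold. Most body-wall muscle markers encode structural proteins, while the hypodermis list also holds transcription factors. The medians therefore order the lists and not the tissues themselves. Body-wall muscle stood highest, with a median of 529 ± 45.7 CPM per kb over 19 measured markers (median of the gene means, and SD of the medians of the 3 libraries). Its most abundant marker per kb was pat-10, troponin C, with 1700, 1477 and 1439 CPM. Its giant proteins stood low on that scale, and ttn-1, a titin with 56044 bases of exon, had 2.04 CPM per kb from 137.5, 113.3 and 91.5 CPM. hlh-1, the muscle transcription factor of the list, was not analysed here.

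The intestine came second with a median of 173 CPM per kb over 29 markers, and with medians of 176.7, 176.7 and 174.7 within the separate libraries. spp-5, a saposin-like antimicrobial protein of the gut, had 339.8, 357.6 and 340.3 CPM. act-5, the actin of the intestinal brush border, had 666.6, 677.3 and 771.8 CPM. elt-2, the GATA factor that keeps the gut's identity, had only 20.3, 20.5 and 20.5 CPM, or 13.1 CPM per kb, against 1923 CPM per kb for asp-1, so the regulator's transcript was scarce beside those of the digestive enzymes.

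5 lists formed a middle group of germ line, gametes and pharynx. Oocytes and eggshell had 30.5 ± 3.01 CPM per kb over 26 markers, the mitotic and meiotic germ line 30.4 ± 0.171 over 35, pharyngeal muscle 29.7 ± 2.36 over 8, pharyngeal gland and cuticle 28.4 ± 0.544 over 18, and sperm 26.5 ± 0.847 over 35. Neighbours in this order lay within the larger of their SDs, apart from sperm, which lay lower. All 35 germ-line markers reached 10 CPM. gld-1, an RNA-binding protein that controls meiotic entry and oocyte identity, had 438.7, 480.5 and 492.2 CPM. perm-4, an eggshell protein, had 189.5, 205.4 and 221.7 CPM, and rme-2, the yolk receptor of oocytes, had 78.7, 92.2 and 90.3 CPM. gsp-3, a protein phosphatase of sperm, had 110.7, 110.8 and 111.7 CPM. myo-2, a pharyngeal myosin, had 307.5, 283.5 and 273.1 CPM.

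The epidermal list, hypodermis and seam, had a median of 16.9 ± 1.25 CPM per kb over 23 markers and a range of 1.07 to 2111 CPM per kb. dpy-13, col-12 and col-10 were at its top, and the seam and regulatory genes grd-10, grd-13 and nhr-25 at its bottom, all 3 averaging under 4 CPM. Pan-neuronal genes had a median of 9.89 ± 0.605 CPM per kb over 21 markers, close to the 10.5 of all genes. snb-1, synaptobrevin, had 83.8, 90.1 and 100.8 CPM, sbt-1, a neuroendocrine chaperone of peptide processing, had 38.6, 40.9 and 39.1 CPM, and rgef-1, widely used as a neuron-specific marker, had 5.54, 4.37 and 5.23 CPM. tba-1, a tubulin in the list, is also made outside neurons.

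The remaining tissues and the separate neuron classes lay under the median of all genes. The somatic gonad, spermatheca and vulva had 6.01 ± 0.193 CPM per kb, coelomocytes 5.10 ± 0.608, monoamine neurons 4.78 ± 0.189, the excretory system 4.45, glia 4.40 ± 0.140, cholinergic neurons 2.90 ± 0.411, glutamatergic neurons, from eat-4 alone, 1.60 ± 0.109, touch neurons 1.20 ± 0.0376 and GABA neurons 1.05 ± 0.0409. The markers measured numbered 18, 7, 8, 13, 7, 6, 1, 10 and 5 in that order. unc-17 and unc-4 of the 8 cholinergic markers and tph-1 of the 9 monoamine markers were not analysed here. The medians within the separate libraries were 4.20, 4.19 and 4.18 for the excretory system and 4.37, 4.18 and 4.10 for glia, all under the medians of gene means. The order of these 2, and that of coelomocytes and monoamine neurons, which differed by less than the larger SD, is not firm. Transcripts of very few cells could be read. mec-17, a tubulin acetyltransferase of the touch neurons, had 31.1, 27.5 and 28.9 CPM, and unc-25, the enzyme that makes GABA, had 21.6, 21.8 and 21.7 CPM. mec-4, the touch channel subunit, had 0.970, 0.803 and 1.32 CPM, values that rest on few reads.

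Cilia and male genes were lowest. 20 of 28 cilium genes were measured, at a median of 0.576 CPM per kb, with 0.601, 0.580 and 0.650 in the separate libraries, and none reached 10 CPM. Of 16 male-enriched genes 4 were measured, at a median of 0.414 ± 0.0531 CPM per kb. ram-5, a gene of the male tail rays, was the highest of these with 4.94, 4.33 and 5.30 CPM. The remaining 12 male-enriched genes were not analysed here.

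**Figure D3:**
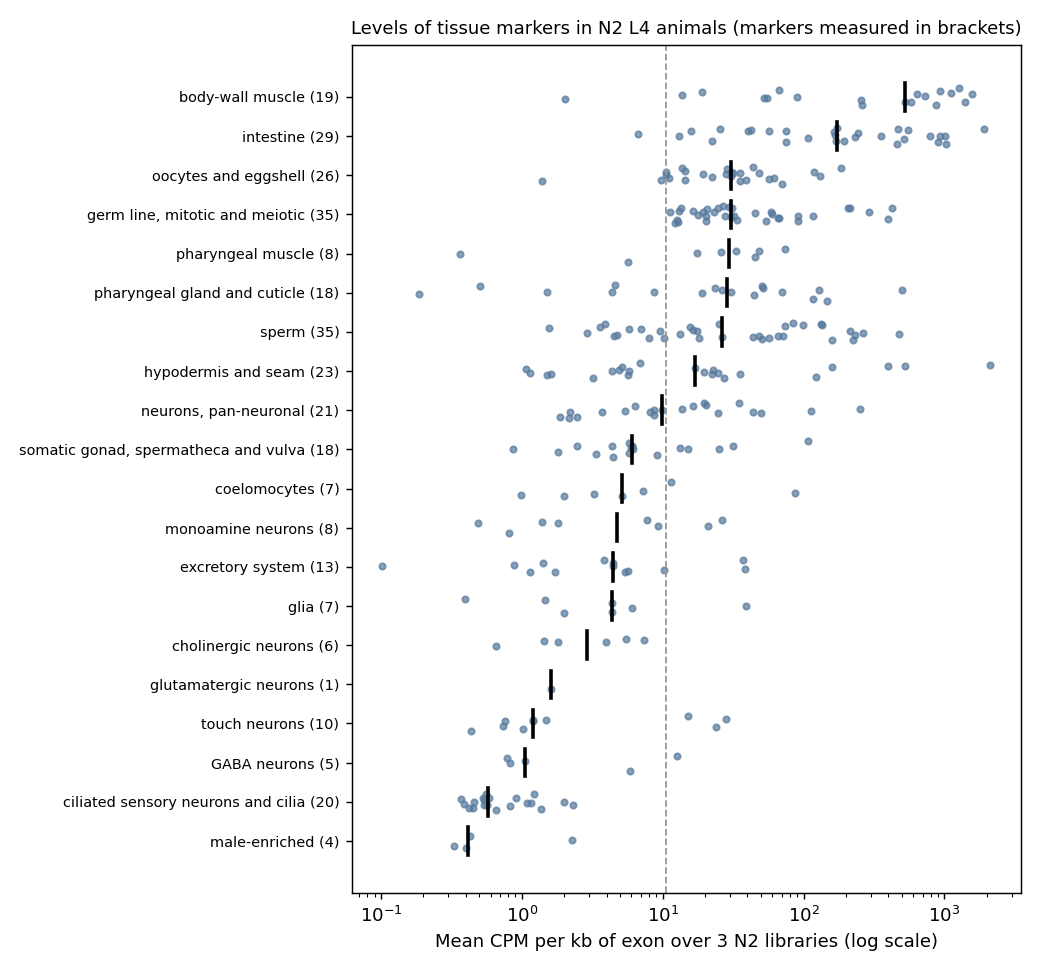
Mean CPM per kb of exon over the 3 N2 libraries (horizontal axis, log scale) for every measured marker of each tissue, 1 point a gene, with the median as a black bar and the median of all genes, 10.5, as a dashed line. Body-wall muscle and intestine stand well to the right, 5 germ-line, gamete and pharyngeal lists share a middle position, and neuron classes, cilia and male genes lie to the left of the dashed line.

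Stage markers were read next, and none of the lists separates late L4 larvae from young adults. All 7 collagens of the adult and late L4 cuticle list were measured. col-19, the usual marker of the switch to adult cuticle, had 439.7, 463.4 and 420.8 CPM, and bli-1 and bli-2, collagens of the adult struts, had 55 and 111.9 CPM on average. rol-8 had 228.5, 226.2 and 222.7 CPM. All 6 yolk genes, described above, averaged over 100 CPM. Of 7 dauer genes 2 were measured and the others were not analysed here, the higher being daf-9, an enzyme of dafachronic acid synthesis, with 2.48, 2.12 and 2.05 CPM. Of 20 early zygotic genes of the embryo 4 were measured, with the others not analysed here, and sdz-24 was the only one above 2 CPM, with 18.1, 16.2 and 15.9 CPM.

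The heterochronic genes, which time larval development, were nearly all present. lep-5, a long non-coding RNA acting on LIN-28, was the most abundant with 228.6, 229.8 and 239.7 CPM. lin-42, the worm's period homologue, had 66.7, 74.3 and 84.3 CPM. lin-29, which drives the larva-to-adult switch of the epidermis, had 14, 14.1 and 15.4 CPM. The early-acting lin-14 and lin-28, which are targets of microRNAs, had 23.9 and 23.5 CPM on average. lin-41 had 69.6 CPM, and it stands in the oocyte list as well.

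The moulting list of 27 genes was measured in full, with a median of 10.4 CPM per kb. mlt-10, needed to shed the old cuticle, had 157.8, 157.1 and 159.3 CPM. nas-36, a metalloprotease of the same step, had 76.7, 71.8 and 77.3 CPM. nhr-23, a receptor that oscillates with the moults, had 56.1, 52.4 and 61.1 CPM.

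The genes the study was built around are given for N2 as baseline levels. AMPK is an energy-sensing kinase whose catalytic subunits are aak-1 and aak-2, and CRTC-1 is a coactivator of the transcription factor CRH-1 (CREB) that AMPK phosphorylates. aak-2 had 59.9, 57.2 and 67.9 CPM, and aak-1 had 56.5, 51.6 and 55.9 CPM. Per kb they were close, 25.4 ± 2.3 for aak-2 and 23.4 ± 1.15 for aak-1. All 14 listed AMPK and upstream kinase genes were measured, with a median of 15.7 CPM per kb and 11 of them at 10 CPM or more. par-4, the LKB1 kinase that activates AMPK, had 33.9, 32.9 and 35.1 CPM.

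crtc-1 had 19.8, 18.3 and 23.4 CPM and crh-1 had 22.3, 21 and 26.1 CPM, both highest in replicate 3. The 14-3-3 proteins, which bind phosphorylated CRTC, were far more abundant: par-5 had 747.4, 780.1 and 750.8 CPM and ftt-2 had 475.4, 447.5 and 483.3 CPM. tax-6, the catalytic subunit of the phosphatase calcineurin, had 149.8, 140.8 and 144.8 CPM. So the coactivator's transcript lay at 10.8 CPM per kb, near the median gene, while those of its 14-3-3 partners lay at 603 for par-5 and 362 for ftt-2.

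The 14 listed amine genes, which the study's title connects with CRTC-1, had a median of 1.67 CPM per kb, against 10.5 for all genes. They ranged from 0.545 to 26.4 CPM per kb. tdc-1 and tbh-1, the enzymes that make tyramine and octopamine, had 23.1 and 16.9 CPM on average. cat-2, the tyrosine hydroxylase of dopamine synthesis, had 2.88, 1.48 and 1.57 CPM, with replicate 1 above the other two. The octopamine receptors ser-3, octr-1 and ser-6 had 5.83, 1.35 and 0.835 CPM. Of the lipid genes, nhr-49, a receptor of the fasting response, had 79.98, 82.1 and 84.9 CPM, and its target acs-2, an acyl-CoA synthetase of fat oxidation, had 39.9, 34.1 and 41.7 CPM.

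Reads were not divided evenly over the chromosomes. The X chromosome held 13.9% of the placed genes but 9.80% ± 0.0600 of the reads, and its median gene had 8.76 CPM. Chromosome V held 19.8% of the genes and 15.5% ± 0.0847 of the reads, with a median of 9.06 CPM. The opposite held on chromosome I, with 16.5% of the genes and 21.2% ± 0.0883 of the reads, and on chromosome III, with 15.6% and 18.7% ± 0.0790, where the median genes had 21.3 and 21 CPM. Chromosomes II and IV lay between, with medians of 15 and 16.1 CPM. The separate libraries gave nearly the same shares.

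The lists differed in how many of their members lie on X. None of the 95 genes of both sperm lists and none of the 35 germ-line markers was X-linked, and 1 of 26 oocyte markers was. Of ribosomal protein genes 2.47% were X-linked and of proteasome genes 0. Neuropeptide genes stood at 29%, synaptic and channel genes at 27.5% and sarcomere genes at 24.8%, and 5 of the 6 vitellogenins lie on X. In C. elegans germ cells the X chromosome is known to be largely silent, and germ-line genes are known to be scarce on it.

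The 3 libraries were close replicates. Between pairs, the median absolute difference was 0.08 to 0.10 on the log2(CPM + 0.5) scale over 10244 genes of at least 5 CPM. Pearson's r across these genes was 0.995 to 0.996, a description over genes that are not independent. The pairs still differed by more than counting alone, with a chi-square per degree of freedom of 11 to 19.3, where counting alone gives about 1.

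For a single gene the coefficient of variation had a median of 5.68%, with 10% of genes under 2.05% and 10% over 12.5%. The coefficient expected from counting error alone had a median of 2.74%. A coefficient observed over only 3 libraries has a median somewhat under the expected one. The observed coefficient fell with abundance, to 3.76% for genes of 200 to 500 CPM, against 8.84% for genes of 5 to 10 CPM. It was 5.03% for genes of 1000 to 2000 CPM. A biological coefficient of variation, the part beyond counting error as edgeR estimates it over 13329 genes, was 7.44%. This is 1 estimate for all these genes together, which average at least 1 CPM. The 5.68% is a median of single-gene values over genes averaging at least 5 CPM. The 2 therefore differ in statistic and gene set and cannot be read as part and whole. The trend of the biological coefficient ran from 12.1% for genes of 1 to 5 CPM to 5.92% for those over 1000 CPM. Only 100 genes, 0.976% of the 10244, ranged over more than 1.5-fold and 12 over more than 2-fold, while 4483, or 43.8%, stayed within 1.1-fold.

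**Figure D4:**
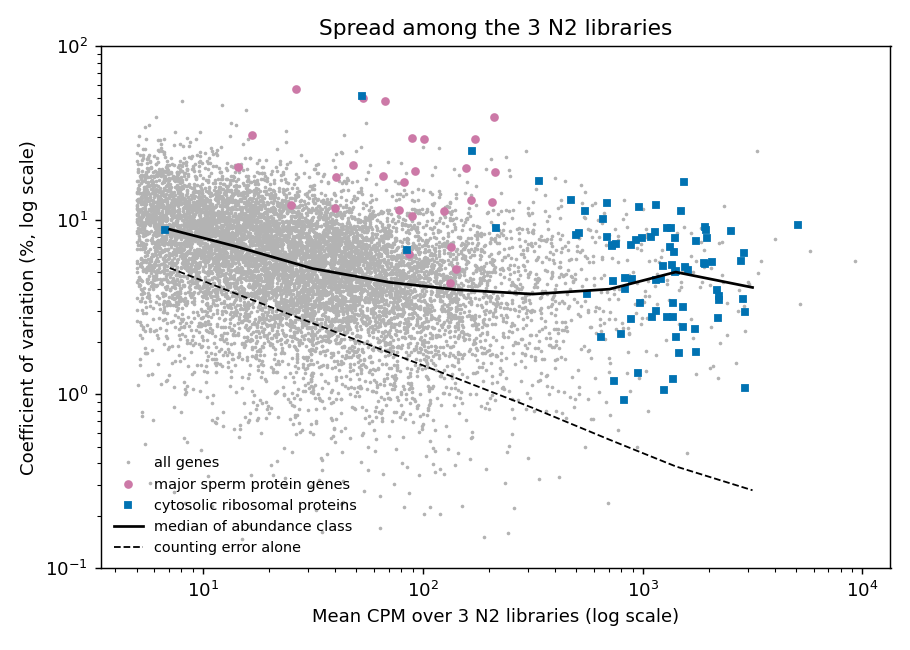
Coefficient of variation over the 3 N2 libraries (vertical axis, percent on a log scale) against mean CPM (horizontal axis, log scale) for 10244 genes, with the median of each abundance class as a solid line and the value from counting error alone as a dashed line. The solid line stays near 4% to 5% above 100 CPM where counting error keeps falling, and most of the major sperm protein genes lie above it.

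Some lists had small spreads, given without a test. Translation factors had a median coefficient of variation of 2.76%, germ-line markers 2.85% and proteasome genes 3.02%. Their median levels were 223.8, 77.6 and 182.1 CPM, and all genes of like abundance had 3.76% at 200 to 500 CPM, 4.39% at 50 to 100 CPM and 3.98% at 100 to 200 CPM. Of the single genes at 100 CPM or more, kat-1, a thiolase of fatty acid breakdown, had 190.6, 190.1 and 190.1 CPM, and bli-4 was next. The others of the 15 smallest spreads include mel-28 and npp-3, of the nuclear pore, idhb-1, of the TCA cycle, and rpn-7, of the proteasome. Among so many genes and with 3 libraries, a narrow range does not show that a gene is steadier than others. Genes in common use as references had a median of 4.61%; pmp-3, a peroxisomal transporter, had 46.4, 49.9 and 48.5 CPM, and act-1, an actin, had 266.7, 309.1 and 299.1 CPM.

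The libraries differed most in a few lists whose genes moved together, and these are described without a test, beside the same counts for all genes. Over all 10244 genes replicate 1 was highest in 4071, or 39.7%, replicate 2 in 1623, or 15.8%, and replicate 3 in 4550, or 44.4%. Replicate 1 was lowest in 3049, or 29.8%, replicate 2 in 4446, or 43.4%, and replicate 3 in 2749, or 26.8%. The median log2 deviations from the gene mean were 0.01, -0.03 and 0.02. Major sperm protein genes departed clearly: all 27 with at least 5 CPM were highest in replicate 1, at median deviations of 0.26, -0.13 and -0.08. Their summed CPM was 1.40 times as high in the highest library as in the lowest. 9 of the 27 ranged over more than 1.5-fold, or 33.3%, against 0.976% of all genes.

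msp-31 had 290.0, 125.6 and 218.9 CPM, and msp-79 had 39.9, 10.3 and 29.2 CPM, the largest range of any gene of at least 5 CPM with a symbol. These 2 were lowest in replicate 2, and msp-51 was lowest in replicate 3 with 103.01, 60.8 and 38.9 CPM, so the order of replicates 2 and 3 was not shared. With coding sequences this alike, the part of read assignment in these ranges and in the family's sum was not tested. Other sperm genes followed weakly, with 29 of 51 highest in replicate 1 and deviations of 0.05, -0.04 and 0.01.

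Oocyte markers ran the other way. 20 of 25 were lowest in replicate 1, against 29.8% of all genes, and 18 were highest in replicate 2, against 15.8%. Their median deviations were -0.11, 0.08 and 0.04. cpg-1, a chondroitin proteoglycan of the eggshell, had 78.2, 99.4 and 97.6 CPM, and puf-5, an RNA-binding protein of growing oocytes, had 40.9, 51.7 and 46.7 CPM. Both were lowest in replicate 1, and for puf-5 replicate 3 lay between the other libraries. The mitotic and meiotic germ line hardly moved, with deviations of -0.02, 0.01 and 0.01.

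The furrow collagens separated replicate 2. All 5 with at least 5 CPM were lowest there, at median deviations of 0.28, -0.33 and 0.03. The sixth, dpy-3, averaged 4.98 CPM and had 5.51, 3.89 and 5.55 CPM. noah-1 and noah-2, zona pellucida proteins of the temporary matrix made in each moult, and mlt-11, a protease inhibitor needed for moulting, had the same order. noah-1 had 27.3, 16.1 and 22 CPM and mlt-11 had 34.3, 21.1 and 28.8 CPM. Of 24 moulting genes with at least 5 CPM, 16 were lowest in replicate 2 and 0 highest, where 4446 of 10244 genes were lowest and 1623 highest. Their median deviations were only 0.03, -0.06 and 0.03, against 0.01, -0.03 and 0.02 for all genes. The lean to replicate 2 was not particular to moulting: of 80 nuclear hormone receptor genes 45 were lowest there and 12 highest, at a median deviation of -0.06. The other collagens showed deviations of -0.01, 0.01 and -0.02.

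Of all cuticle collagens with at least 5 CPM, 6 ranged over more than 1.5-fold, 3 of them lowest in replicate 1 and 3 in replicate 2. Those lowest in replicate 1 include col-3, with 7.99, 19.8 and 19.4 CPM. They also include col-80, chosen after its values were seen, with 36.5, 61.5 and 58.7 CPM. epic-2, with no role assigned here, was also lowest in replicate 1, with 5.82, 14.7 and 16.3 CPM.

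Most muscle markers were higher in replicate 1 than in replicate 3. 14 of 19 body-wall muscle markers were highest in replicate 1, against 39.7% of all genes, and 15 were lowest in replicate 3, against 26.8%. Their median deviations were 0.09, 0.00 and -0.09. 6 of 7 pharyngeal muscle genes were lowest in replicate 3. The same order was seen outside muscle. Of 22 intermediate filament and adherens junction genes 16 were highest in replicate 1 and 14 lowest in replicate 3, at deviations of 0.06, -0.02 and -0.04. In that list vab-10, a spectraplakin with 24099 bases of exon, had 721.4, 639.0 and 597.9 CPM. The part of transcript length in this order was not tested. Of long muscle transcripts, ttn-1 had the values given above, with a coefficient of variation of 20.2%, and unc-22, twitchin, had 522.2, 429.4 and 375.1 CPM. The intestinal markers had median deviations of -0.01, 0.03 and 0.00, although 15 of 29 were lowest in replicate 1 and 13 were highest in replicate 2. The median deviation of ribosomal proteins stayed within 0.01, although rpl-37 had 51.7, 26.6 and 81.4 CPM.

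**Figure D5:**
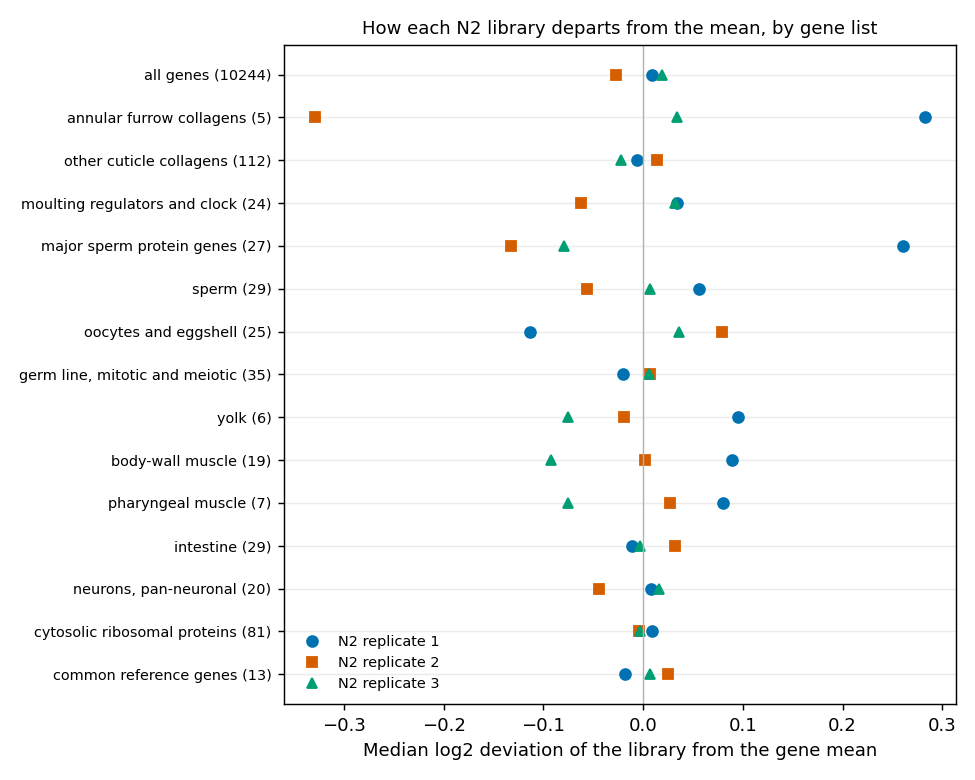
Median log2 deviation of each N2 library from the gene mean (horizontal axis) by gene list, with the number of genes of at least 5 CPM in brackets. Replicate 1 lies far right for major sperm protein genes and left for oocyte markers, replicate 2 far left for the annular furrow collagens, and replicate 3 left for both muscle lists, while all genes, ribosomal proteins and the intestine stay near 0.

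These departures are small beside the differences between genes. The 1.40-fold range of the summed major sperm protein genes was the widest of any function list, and the 6 furrow collagens, a low-abundance subset of the collagens, had a range of 1.55-fold in their sum. The 81 ribosomal protein genes summed to within 1.02-fold. The labels do not give the hour at which each culture was taken, and whether the libraries differ in that hour was not tested.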

How the data were processed

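RNA from 3 N2 samples of whole L4 animals was read from the deposited table of that strain. The 9 value columns of the other strains were not used. The deposited CPM were made by the authors from gene counts, scaled in edgeR by depth and RNA composition with every sample of the series, per the labels. The submitters' processing notes name CASAVA 1.8.2 for base calling, cutadapt for trimming, TopHat2 2.0.8 for alignment and HTSeq for counting. The kit marks no strand, so reads of overlapping genes cannot be told apart. 4443 of 14282 genes, or 31.1%, have exons that overlap another gene, 84 of them over more than 50% of their bases. Both ce6 and WS238 are named in the series' design text, which leaves the build uncertain. Lengths, chromosomes and coordinates were taken by gene identifier from the Ensembl annotation of WBcel235. The text also says that genes under 1 CPM were dropped, although 1176 genes average under 1 CPM in N2.

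Of 14508 entries 72 carried retired identifiers, and 3 repeated names were merged, which left 14505 genes, 13820 of them with a symbol. Whole reads were recovered from the CPM steps for 100% of values, within 0.02 reads. Spread used genes averaging at least 5 CPM, deviations used log2(CPM + 0.5), and dispersion was estimated with edgeR 4.0.16 in R 4.3.3 on the recovered reads of genes averaging at least 1 CPM, after the estimate was tested on simulated data. Counting error is 1 over the square root of the mean number of reads. No test was made, as 1 group enters. The SD is over the 3 libraries and may hold technical as well as biological spread.

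Function lists were made from gene names, each gene going to the first list that matched, and tissue and stage lists from known markers. A listed gene with no entry under its name was not analysed here. The names msd-1 and ssp-9 each match 2 entries. Members and lists were chosen with earlier results of these data known, and the function lists were corrected after seeing which names they matched. Named genes are the 30 highest by CPM, the 20 highest per kb, the leading members of each list, the 15 with the largest and smallest spread, and others named for their role, whose values had been seen. The planned count of promoter motifs was not made.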

Additional observations from a re-analysis of the deposited data

How the results depend on the processing

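Of the main results, 78 recomputed values stayed within the spread of the libraries (or 1.5-fold for a count) and 28 moved. A share recomputed without 1 library cannot leave that spread, so those values among the 78 show nothing about robustness. Per kb of exon, 248 genes held 50% of the reads, the 10 most abundant held 6.01%, and shares were 24.5% for ribosomal proteins, 2.50% for sarcomere genes, 8.52% for collagens, 1.74% for both sperm lists, 0.168% for vitellogenins and 2.26% for gut digestive genes. With 1000000 CPM as denominator the ribosomal share was 10.7%. With columns scaled to 1000000, marker medians were 605 CPM per kb for body-wall muscle, 198 for intestine, 11.3 for pan-neuronal genes and 34.8 for the germ line; with coding length they were 694, 227, 18.7 and 39.2, and with the longest transcript 176 for intestine and 31.3 for the germ line. The germ-line median was 30.2 to 30.7 when 1 library was left out. The median coefficient of variation was 4.26% to 5.21% without 1 library. An SD over fewer libraries has a lower median for the same spread, so this drop does not show a dependence on single libraries. The median was 6.72% at 1 CPM or more, 4.70% at 20 CPM or more and 7.26% with no filter. edgeR's coefficient was 6.56% to 8.27% without 1 library.

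The range of the median deviations of major sperm protein genes, 0.39 on the log2 scale, was 0.035 without replicate 1, so it rests on that library, and up to 0.43 without another. No paired analysis was possible because only 1 group enters and no groups are compared. Of single tissue lists and other values 88 stayed and 40 moved. Leaving out the ribosomal RNA entry was chosen after seeing the data. Depth limits genes of few reads: at 5 to 10 CPM counting alone gives a coefficient of variation of 5.30%. The cause of the moved values, beyond the change of scale or of the libraries and their number, was not tested.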

Other observations

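Genes without a symbol of the usual form, letters and a number, were a large part of the table, and their reads have been described above only for F41F3.3. They numbered 6518 of 14505 and held 18.3%, 18% and 18.5% of the reads. The most abundant after F41F3.3 were ZK180.5 with 1710, 1779 and 2023 CPM, F46H5.3 with 1663, 1797 and 1640 CPM, Y37E3.8 with 1686, 1723 and 1652 CPM, and C17F4.7 with 1253, 1362 and 1272 CPM. Y37E3.8 stood at 3507 CPM per kb, among the 20 highest genes on that scale.

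Entries that are not annotated as protein-coding took few reads. The 3 ribosomal RNA entries held 0.384% ± 0.0952 of the reads. 459 pseudogenes held 0.476% ± 0.0102 of the reads, 77 of them at 10 CPM or more, and reads of a pseudogene and of its parent gene can be confused. 8 long intergenic RNAs held 0.0294% ± 0.000904, nearly all of it lep-5.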
